A study of Homo sapiens with 8 samples.

Results

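The de novo purine synthesis enzymes are the 10 genes whose products build inosine monophosphate (IMP) on a ribose phosphate and turn it into AMP and GMP. They were chosen by name from the pathway, as PPAT, GART, PFAS, PAICS, ADSL, ATIC, IMPDH1, IMPDH2, GMPS and ADSS, and all 10 were found among the 57820 genes of the deposited tables. All 10 also passed the filter on low counts and stood among the 11218 genes tested. Messenger RNA, isolated by its poly(A) tail, was sequenced in 8 libraries from A549, a human cell line derived from a lung adenocarcinoma. The groups were cells with an MGA overexpression vector, cells with the empty vector (Empty), cells given an siRNA that silences MYC (siMYC) and cells given a negative control siRNA (siNC), with 2 libraries each, called A and B. The labels do not say whether A and B came from separate cultures, how long the cells were treated or whether the vector cells are 1 clone, so the p-values cover the spread of these libraries, which may be technical.

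Purine nucleotides are needed for RNA, DNA and energy transfer, and dividing cells make much of their supply anew. PPAT commits phosphoribosyl pyrophosphate (PRPP) to the route, the following enzymes assemble the ring up to IMP, and IMP is the branch point towards AMP and GMP. The transcription factor MYC, bound to its partner MAX, is known to activate several of these genes through the E-box sequence CACGTG. MGA is a large DNA-binding protein that also pairs with MAX and is known as a repressor at such sites. The title of the series names repression of MYC target genes by MGA, and the comparisons ask how these genes responded to more MGA and to less MYC.

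The sequences below are from RefSeq on GRCh38.p14 and show where the E-box lies at member genes; the windows searched ran from 250 bases before to 50 bases after each annotated start, and 8 of 10 members had at least 1 such window. CACGTG, which reads the same on both strands, was found at 3 of these 8 members, PPAT, PAICS and ATIC, against 7.26% of all 35116 windows and 8.77% of all genes. PPAT and PAICS lie head to head on chromosome 4, and their sites are the same 6 letters. PAICS had 3 windows, of which 1 held the site. The stretch of 136 bases between the PPAT start and the nearest PAICS start beyond it, chr4:56435616-56435751, is shown on the strand of PAICS. Then follow 30-base windows, with the motif in capitals: the PPAT window (chr4:56435780-56435809, minus strand, motif 182 bases before the PPAT start), the same site seen from PAICS (chr4:56435772-56435801, plus strand, 41 bases into the transcript), and the site in ATIC just inside its transcript (chr2:215312076-215312105, plus strand). The 250 bases before the ATIC start (chr2:215311809-215312058, plus strand) hold a further CACGTG that begins 46 bases before it.
PPAT-PAICS interval: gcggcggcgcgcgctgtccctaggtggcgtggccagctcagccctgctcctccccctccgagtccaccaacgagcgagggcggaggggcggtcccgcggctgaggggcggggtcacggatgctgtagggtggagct
PPAT site: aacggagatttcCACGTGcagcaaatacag
PAICS site: ctggaaagctgtatttgctgCACGTGgaaa
ATIC inner site: ctcctacctgcgCACGTGgtgccgccgctg
ATIC upstream: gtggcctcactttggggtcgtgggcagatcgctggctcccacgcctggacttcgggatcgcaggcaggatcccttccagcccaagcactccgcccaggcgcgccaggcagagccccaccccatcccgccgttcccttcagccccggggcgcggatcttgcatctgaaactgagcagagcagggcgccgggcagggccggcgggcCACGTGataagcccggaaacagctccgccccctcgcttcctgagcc

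A related hexamer, CACGCG on either strand, was found at PFAS and ADSS, against 11.4% of all windows and 13.5% of all genes. The PFAS match (chr17:8249260-8249289, plus strand) begins 17 bases before the start, and the ADSS match (chr1:244452233-244452262, minus strand) begins 190 bases before it. The T-box letters TCACACCT, searched on both strands because MGA also carries a T-box domain, were found at no member window, and were in 0.98% of all windows. These are matches of letters in the windows searched and no measure of binding.
PFAS site: ctgcccgcggcgCACGCGgatgacgtaaca
ADSS site: tccgacgctccaCACGCGcttccgcgcctc

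The libraries were shallow, with total expected counts of 917548 to 1176890 with MGA, 820428 and 844477 with the empty vector, 1598792 to 2129006 with siMYC and 1398805 to 1741730 with siNC. A member gene had between 31 and 598 counts in a library, so counting error alone is a visible part of each value. MGA itself took 9.54% and 9.68% of all counts with the MGA vector, against 0.0124% and 0.00829% with the empty vector. Levels are given as CPM, the usual depth-scaled count unit, here after TMM scaling of the libraries. MYC stood at 48.3 and 41.1 CPM with siMYC and at 219.3 and 182.5 CPM with siNC. Among fixed markers, the epithelial keratins KRT8 and KRT18 and the A549 genes AKR1B10 and ALDH1A1 were abundant throughout. KRT8 (log2 fold change -0.22) and KRT18 (-0.36) were, however, called lower with siMYC. AKR1B10 (-0.35) and ALDH1A1 (-0.47) were called lower with MGA. Of the other epithelial markers, EPCAM was at 0 in 3 libraries and had at most 17 counts. KRT19 was at 155 and 119 TPM with siMYC and 58.5 and 47.4 TPM with siNC (log2 fold change 1.23 in CPM, adjusted p = 6.02e-07 in edgeR), and had 6 to 10 counts in each MGA and Empty library. By contrast, the lung genes NKX2-1, SFTPB and SFTPC and the blood cell genes PTPRC and CD3E had no count in any of the 8 libraries. COL1A1, a fibroblast collagen gene, was at 84.9 and 87.2 TPM (the authors' length-corrected unit) with siMYC and at 7.85 and 19.8 TPM with siNC, and its fibroblast partner COL1A2 was at 0 in those 4 libraries. The part of these marker differences in the siMYC results was not tested. The siMYC replicate A library had lower CPM than siMYC replicate B in all 10 members, so siMYC results are also given without each of these libraries.

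With the MYC siRNA, all 10 purine enzymes were called lower, where 20% of all genes tested were called lower and 39% in either direction. In bulk RNA, fewer cells with a transcript and less of it per cell cannot be told apart. PAICS fell most, to 86.6 ± 19.1 CPM with siMYC against 347.6 ± 1.58 CPM with siNC (SD, n = 2 each), which is a remaining level of 0.246 of the siNC level. The smallest fall was that of IMPDH1, to 70.3 ± 3.87 CPM against 110 ± 6.06 CPM. With MGA overexpression 5 of the 10 were called lower, PPAT, PFAS, PAICS, ATIC and IMPDH2. Of all genes, 4% were called lower and 8.96% in either direction. The log2 fold change was negative in 9 of the 10, and no fall exceeded that of PFAS, to 0.548 of the Empty level. ADSS, which fell with siMYC (log2 fold change -1.79), had 0.09 with MGA and was not called there.

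**Figure D1:**
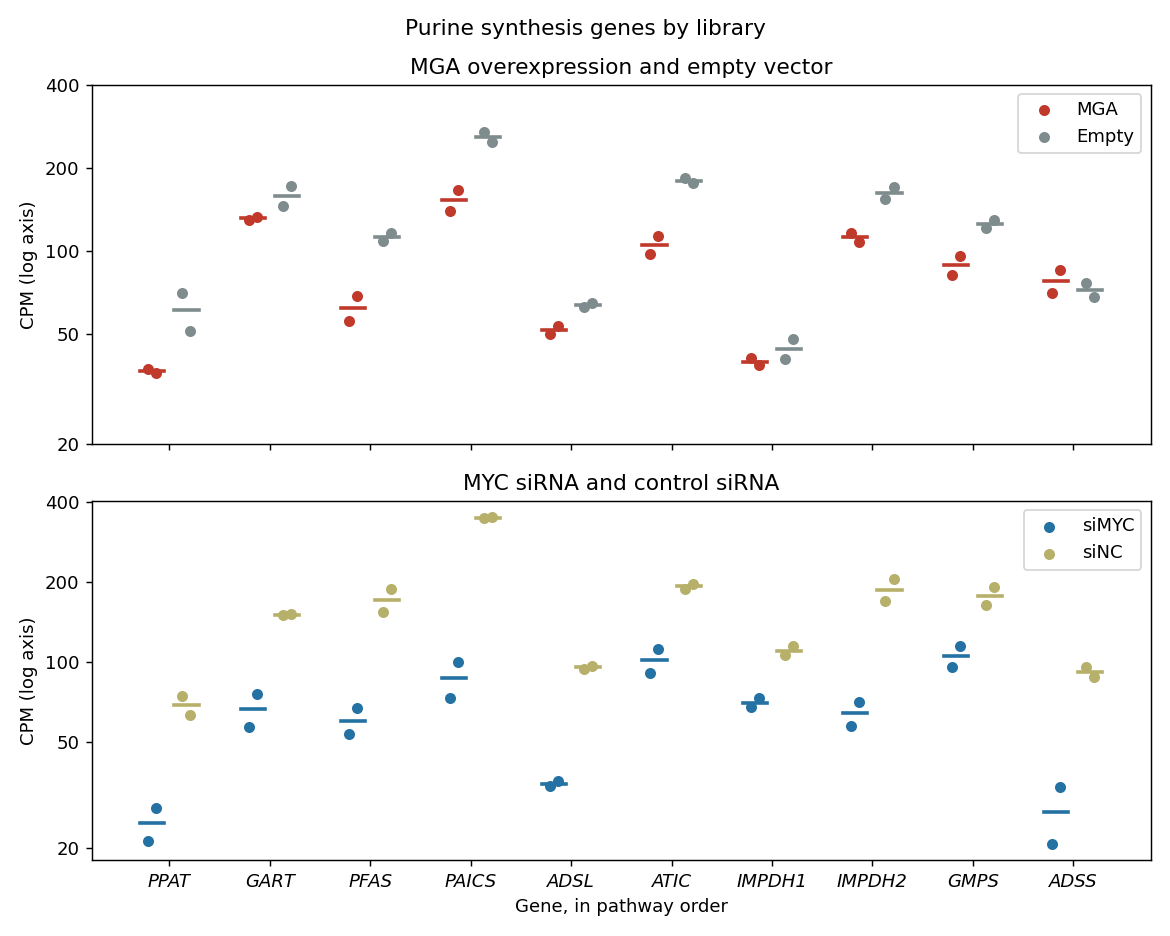
TMM-scaled CPM (log axis) of the 10 genes in pathway order, 1 point per library with a bar at the mean of 2, for MGA and Empty (top) and siMYC and siNC (bottom). The siMYC points lie below the siNC points in all 10 genes, and the MGA points lie below the Empty points in 8 of 10.

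The response to the MYC siRNA is taken first, along the pathway. Genes were called at an adjusted p under 0.05 in edgeR's quasi-likelihood test over all genes tested, by which 20% of all genes were lower with siMYC and 19% higher. PPAT, the amidotransferase that commits PRPP to purines, had 21.1 and 28.2 CPM with siMYC and 74.3 and 63.0 CPM with siNC. Its groups did not overlap, and it fell by 1.49 (log2; SE 0.19; edgeR adjusted p = 5e-07). GART, a trifunctional enzyme that carries out several of the ring-building steps, had 57.0 and 75.5 CPM with siMYC and 150 and 151 CPM with siNC. The siNC libraries agreed closely while the siMYC libraries were apart, and the log2 fold change was -1.20 (SE 0.14). PFAS, the glutamine-using amidotransferase that follows, had 53.3 and 66.9 CPM with siMYC and 154.3 and 187.8 CPM with siNC. Its log2 fold change was -1.53 (SE 0.14).

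PAICS, a bifunctional carboxylase and synthetase, had 73.1 and 100 CPM with siMYC and 346.5 and 348.7 CPM with siNC. Both siMYC libraries lay far below both siNC libraries, and PAICS fell by 2.03 (log2; SE 0.12; edgeR adjusted p = 9.36e-13). ADSL, the lyase that acts both on the way to IMP and on the way from IMP to AMP, had 34.0 and 35.6 CPM with siMYC and 94.3 and 96.8 CPM with siNC. The replicates of ADSL lay close together in both groups, and it fell by 1.46 on the log2 scale (SE 0.15). ATIC, the bifunctional enzyme that closes the ring and releases IMP, had 91.0 and 112 CPM with siMYC and 188 and 197 CPM with siNC. It fell by 0.94 (SE 0.12), the smallest fall among the 6 enzymes that lead to IMP.

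At the branch point the isozymes differed in size of response. IMPDH2, the form of IMP dehydrogenase known to be raised in dividing and tumour cells, had 57.5 and 70.6 CPM with siMYC and 168.6 and 204.7 CPM with siNC, and fell by 1.56 on the log2 scale (SE 0.14). IMPDH1, the form known as the more constant one, had 67.6 and 73.0 CPM with siMYC and 106 and 114 CPM with siNC, and fell by 0.65 (SE 0.13, adjusted p = 0.00026 in edgeR). The ratio of IMPDH2 to IMPDH1 in CPM was 0.85 and 0.966 with siMYC and 1.59 and 1.79 with siNC. These genes differ in length, so the ratio does not show which isozyme was the more abundant. Divided by the median assigned length, IMPDH2 stayed above IMPDH1 in both siMYC libraries. It had 37.2 and 45.7 CPM per kilobase there, against 32.6 and 35.2 for IMPDH1. The ratio is a description and was not tested. GMPS, which completes GMP, had 95.6 and 114 CPM with siMYC and 163.6 and 190.7 CPM with siNC, a log2 fold change of -0.77 (SE 0.12). ADSS, which starts the AMP branch, had 20.7 and 33.8 CPM with siMYC and 95.7 and 87.5 CPM with siNC. It had the second largest fall after PAICS, at a log2 fold change of -1.79 (SE 0.18), and the widest replicate gap in the siMYC group, with replicate B at 1.63 times replicate A.

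Over the 10 members the median log2 fold change with siMYC was -1.47, against 0.01 over all genes tested. All 10 members were lower in both siMYC libraries than in both siNC libraries, against 33.6% of all genes, with 34% of all genes higher in that way. The median was -1.32 without siMYC replicate A and -1.60 without siMYC replicate B, and all 10 calls held in either case. Counted by DESeq2, 9 of 10 were called lower, IMPDH1 missing with an adjusted p of 0.064, and by limma-trend on TPM 6 of 10 were called lower.

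**Figure D2:**
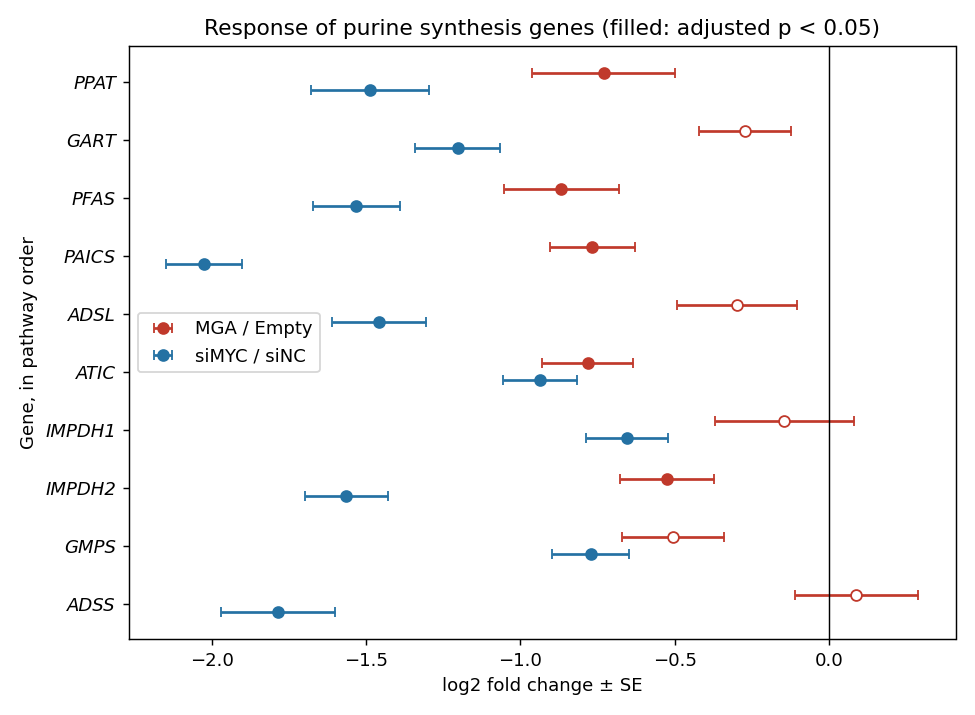
Log2 fold changes with standard errors for MGA over Empty (red) and siMYC over siNC (blue), in pathway order, with filled points at an adjusted p under 0.05 in edgeR. Values with siMYC run from -2.03 to -0.65 and are all filled, and values with MGA run from -0.87 to 0.09 with 5 filled.

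In the MGA comparison 4% of all genes were called lower and 4.96% higher. PPAT had 37.4 and 36.2 CPM with MGA and 70.6 and 51.6 CPM with the empty vector, or -0.73 log2 units (SE 0.23; edgeR adjusted p = 0.046). The Empty libraries differed more from each other than the MGA libraries did. GART, the next enzyme, had 130 and 133 CPM with MGA and 146 and 171 CPM with Empty, and was not called (log2 fold change -0.27, 95% interval -0.58 to 0.03). PFAS had 55.7 and 68.9 CPM with MGA and 109 and 116 CPM with Empty. The PFAS groups were well apart, at -0.87 log2 units (SE 0.19; edgeR adjusted p = 0.0029).

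PAICS had 140 and 167 CPM with MGA and 269.8 and 248.2 CPM with Empty, or -0.77 log2 units (SE 0.14; edgeR adjusted p = 0.00047). ADSL had 50.2 and 53.7 CPM with MGA and 62.5 and 64.8 CPM with Empty. Its groups did not overlap, but its log2 fold change of -0.30 had a 95% interval of -0.70 to 0.10 and it was not called. ATIC had 97.6 and 113 CPM with MGA and 184 and 176 CPM with Empty, or -0.78 log2 units (SE 0.15; edgeR adjusted p = 0.00075). Its remaining level, 0.582 of Empty, was close to that of PAICS, 0.588.

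In the GMP branch, IMPDH2 had 117 and 107 CPM with MGA and 154 and 170 CPM with Empty, and fell by 0.53 log2 units (SE 0.15; edgeR adjusted p = 0.028). IMPDH1 had 41.1 and 38.6 CPM with MGA and 40.5 and 48.0 CPM with Empty, so its groups overlapped (log2 fold change -0.15, 95% interval -0.61 to 0.32). The ratio of IMPDH2 to IMPDH1 in CPM was 2.84 and 2.79 with MGA and 3.8 and 3.55 with Empty. GMPS had 82.1 and 95.8 CPM with MGA and 122 and 130 CPM with Empty, and was not called (log2 fold change -0.51, 95% interval -0.84 to -0.17, adjusted p = 0.0525 in edgeR). GMPS was called with A and B as a replicate block (adjusted p = 0.0304 in edgeR), without the MGA gene in the table (0.0423) and when the 4 libraries of this experiment were fitted alone (0.0128). In all, 5 of 14 alternative settings called it. GMPS was not called by DESeq2 (adjusted p = 0.207) or by limma-trend on TPM, where its log2 fold change was -0.12. ADSS, at the head of the AMP branch, had 70.3 and 85.3 CPM with MGA and 76.4 and 68.4 CPM with Empty. These groups overlapped, and its log2 fold change of 0.09 (95% interval -0.32 to 0.50) became -0.04 when only library sizes were used for scaling.

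The median over the 10 members with MGA was -0.52, against 0.01 over all genes tested. In 8 of 10 members both MGA libraries were lower than both Empty libraries, against 25% of all genes, and in 0 were both higher, against 27.6% of all genes. MYC itself stood higher in the same MGA libraries, at 296 and 347 CPM against 234 and 241 CPM with Empty (log2 fold change 0.43, adjusted p = 0.025 in edgeR). The calls rest on few libraries: 3 members were called without Empty replicate A, 2 without Empty replicate B, 2 without MGA replicate A and 3 without MGA replicate B. PAICS and ATIC were called in each of these, PFAS in 2 of them, and PPAT and IMPDH2 in none. DESeq2 called 3 members, and limma-trend on TPM called 0 with 4 at an unadjusted p under 0.05.

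The responses were then compared directly, as the log2 fold change with MGA minus that with siMYC. By this contrast 18.5% of all genes were called, 8.22% with a negative and 10.3% with a positive difference, which for the members means a fall that was smaller with MGA, or absent. Of the 10 members 6 had such a call: GART, PFAS, PAICS, ADSL, IMPDH2 and ADSS. The difference was widest for ADSS, at 1.87 (SE 0.27, adjusted p = 1.5e-05 in edgeR), followed by PAICS at 1.26 (SE 0.19, adjusted p = 1.97e-05) and ADSL at 1.16 (SE 0.25, adjusted p = 0.0014). IMPDH2 differed by 1.04 and GART by 0.93, and the median over the 10 members was 0.84, against 0.03 over all genes tested. The PFAS call was marginal, with a difference of 0.66 and an adjusted p of 0.0497 in edgeR, and it held in 3 of 17 alternative settings. It was lost without Empty replicate A, Empty replicate B, MGA replicate A, MGA replicate B, siNC replicate B or siMYC replicate A in turn, under each other scaling, without the low-count filter and in DESeq2, and its sign turned on TPM. DESeq2 called 5 members, and limma-trend on log2(TPM + 1) called 2, IMPDH2 and ADSS, with adjusted p-values of 0.603 for GART, 0.129 for PAICS and 0.0576 for ADSL.

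For ATIC and GMPS the responses were near in size and the difference was not called. ATIC fell by 0.78 with MGA and by 0.94 with siMYC, with a 95% interval of the difference of -0.24 to 0.55. GMPS had -0.51 and -0.77, with an interval of -0.16 to 0.69. The intervals of PPAT (0.13 to 1.39) and IMPDH1 (-0.03 to 1.05) were wide and the differences not called. Of the 10 members 5 were called lower in both comparisons, as were 1.91% of all genes. The comparisons share no libraries. They were, however, made in cells with different vectors or siRNAs, whose control groups already differed, and the effects of treatment strength and of experiment cannot be told apart in the difference.

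**Figure D3:**
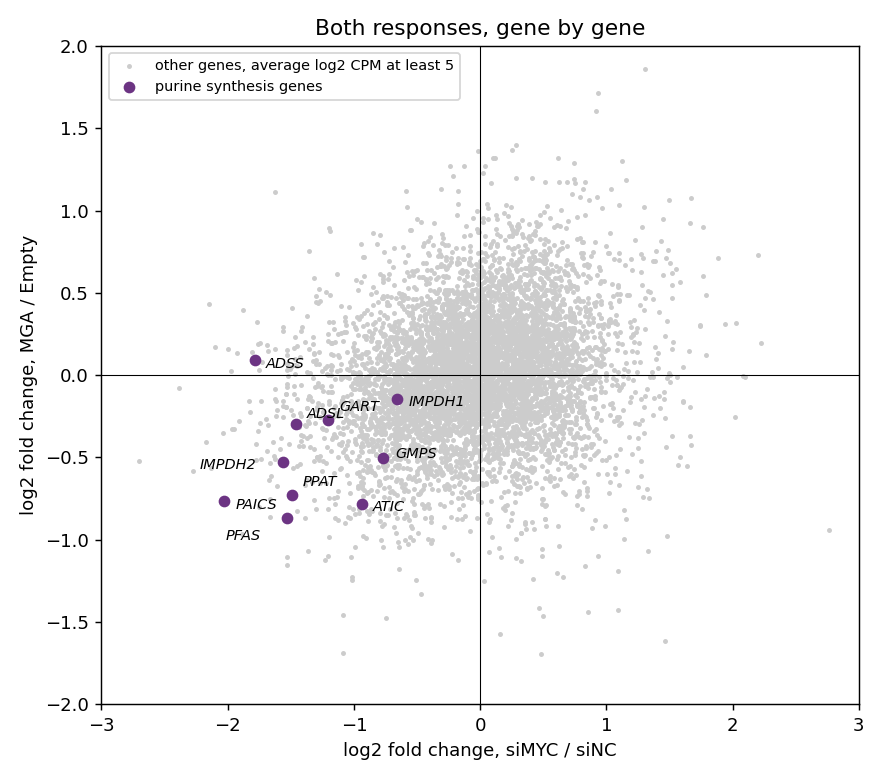
Log2 fold change with MGA over Empty (vertical) against siMYC over siNC (horizontal), with the 10 purine genes labelled and 6516 other genes of average log2 CPM at least 5 in grey; 3 grey genes lie outside the axes and MGA itself is not drawn. Of the purine genes, 9 lie lower left of both zero lines, and ADSS lies just above the horizontal one (0.09; -0.04 when only library sizes were used for scaling).

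The genes nearest in this plane to the members' median pair (-0.52 with MGA, -1.47 with siMYC) were sought among 6465 genes of average log2 CPM of at least 5 outside the lists used here. They were FARSB, a subunit of phenylalanyl-tRNA synthetase, then CCDC85B, MINA, a nuclear oxygenase, RUVBL1, an ATPase of chromatin and assembly complexes, and GEMIN4, of the SMN complex. Their distances from that pair were 0.05 to 0.11 log2 units over the 8 libraries. FARSB had 51.1 and 59.6 CPM with MGA and 79.9 and 81.5 CPM with Empty, and 48.7 and 55.8 CPM with siMYC and 139 and 145 CPM with siNC. All 5 were called lower with siMYC and none with MGA, where edgeR gave adjusted p-values of 0.06 to 0.22. The 5 genes were chosen by these same log2 fold changes, so their calls are no separate result.

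Levels can be compared between genes only per length. Since the transcript length that RSEM assigned to a gene varied between libraries, CPM was divided by the median of that length over the 8 libraries, giving CPM per kilobase. On this scale ATIC had the highest mean in all 4 groups and PPAT, the committing enzyme, the lowest. In siMYC cells PPAT (5.74 and 7.67 CPM per kilobase) overlapped ADSS (7.44 and 12.1). In siNC cells the order ran from ATIC (138.3 ± 4.39 CPM per kilobase, SD, n = 2) and PAICS (138 ± 0.628), which overlapped, through IMPDH2 (121 ± 16.5), GMPS (73.3 ± 7.93), GART (61.7 ± 0.293), IMPDH1 (53.0 ± 2.92), ADSL (48.3 ± 0.894) and PFAS (44.5 ± 6.15), of which ADSL and PFAS overlapped, to ADSS (33.0 ± 2.10) and PPAT (18.6 ± 2.17). With siMYC, GMPS (43.4 ± 5.43) came next after ATIC, but GMPS, IMPDH2 (41.4 ± 6.01) and PAICS (34.4 ± 7.57) overlapped one another, and IMPDH1 (33.9 ± 1.86) lay within the range of PAICS. In MGA cells the first 5 ranks were the same as in Empty cells, ATIC, IMPDH2, PAICS, GART and GMPS, with ATIC and IMPDH2 overlapping in MGA cells and IMPDH2 and PAICS in Empty cells.

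**Figure D4:**
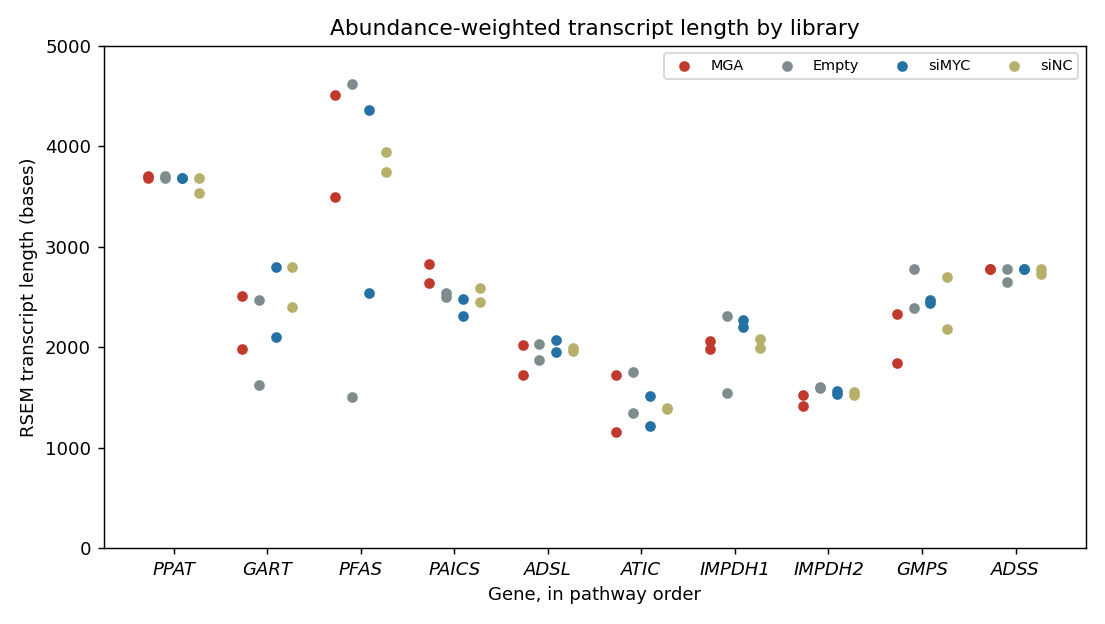
Transcript length in bases that RSEM assigned to each gene, weighted by isoform abundance, 1 point per library in the order MGA, Empty, siMYC, siNC. PPAT and ADSS stayed within 1.05-fold over the 8 libraries, whereas PFAS ranged from 1510 to 4626 bases and both ends were Empty libraries.

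The spread of assigned length shows in TPM. PFAS had 18.9 and 30.7 TPM with MGA and 35.7 and 128.3 TPM with Empty, a replicate ratio of 3.59, while its CPM in the same Empty libraries differed by less than 1.1-fold. GART had 107.5 and 85.05 TPM with MGA and 93.8 and 173.3 TPM with Empty, with assigned lengths of 2475 and 1628 bases in the Empty libraries. IMPDH1 had 34.1 and 30.6 TPM with MGA and 28.1 and 51.5 TPM with Empty. PPAT, with almost constant length, had a replicate ratio of 1.40 in TPM and 1.37 in CPM in the Empty group.

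The other lists are read against the all-gene shares of 4% lower and 4.96% higher with MGA, and 20% lower and 19% higher with siMYC. Of 10 tested genes that supply PRPP, 3 were called lower with MGA, while with siMYC 2 were called lower and 2 higher, which is near the all-gene shares. The list medians were -0.25 with MGA and -0.22 with siMYC. With MGA, DESeq2 called 2 of the 10 lower and limma-trend on TPM 0. With siMYC, DESeq2 and limma-trend on log2(TPM + 1) each called 1 lower and 2 higher. PRPS1, a PRPP synthetase, had 60.7 and 66.9 CPM with siMYC and 144 and 142 CPM with siNC, a log2 fold change of -1.17 (adjusted p = 4e-08 in edgeR), and -0.39 with MGA, not called. The pentose phosphate enzymes PGD and TALDO1 were called higher with siMYC. PGD had log2 fold changes of -0.35 with MGA (adjusted p = 0.019 in edgeR) and 0.27 with siMYC (adjusted p = 0.013), and TALDO1 had 0.39 with siMYC (adjusted p = 0.0048) and -0.17 with MGA (not called). Named after their values were seen, TKT, a transketolase, was called lower with MGA (-0.32; 0.20 with siMYC, not called) and RPIA, a ribose phosphate isomerase, lower with siMYC (-0.63; 0.43 with MGA, not called).

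Of 12 tested genes for the supply of formyl groups by folate, 1 was called lower with MGA and 9 lower and 1 higher with siMYC, with medians of -0.19 and -0.90. With siMYC, DESeq2 called 6 of the 12 lower and limma-trend 4. MTHFD2, the mitochondrial folate dehydrogenase, had 74.9 and 82.2 CPM with siMYC and 326 and 272 CPM with siNC, a log2 fold change of -1.93 (adjusted p = 9.4e-13 in edgeR). With MGA it had 225 and 234 CPM against 213 and 204 CPM with Empty and was not called (0.14), and the difference between the responses was 2.07 (adjusted p = 1.9e-09 in edgeR). MTHFD1, the cytosolic enzyme that makes formyl-tetrahydrofolate for GART and ATIC, was the gene of that list called in both comparisons, with -0.69 with MGA (adjusted p = 0.0027 in edgeR) and -0.93 with siMYC (adjusted p = 1.7e-07). PSAT1 of serine synthesis had -1.32 with siMYC, and -0.45 with MGA, which was not called.

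Of 7 tested genes for salvage of preformed purines, 5 were called lower with siMYC, against 20% of all genes, with a list median of -0.75. DESeq2 called 4 of the 7 lower and limma-trend 2. HPRT1, which recovers hypoxanthine and guanine, had 40.9 and 48.5 CPM with siMYC and 107 and 104 CPM with siNC (log2 fold change -1.25, adjusted p = 1.4e-07 in edgeR; 0.02 with MGA). ADK had -1.19 with siMYC and 0.49 with MGA, PNP -0.86 and -0.23, and APRT -0.75 and 0.12. The transporter SLC29A1, named after its values were seen, had -0.60 with siMYC and -0.37 with MGA. With MGA, edgeR called 0 of the 7, with 0 at an unadjusted p under 0.05 and 0 called by DESeq2 or limma-trend, and the list median was 0.02. The difference between the responses was called for 4 of the 7 (2 in DESeq2, and 1 by limma-trend on log2(TPM + 1)), against 10.3% of all genes: HPRT1 (1.27), ADK (1.67), PNP (0.62) and APRT (0.88).

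**Figure D5:**
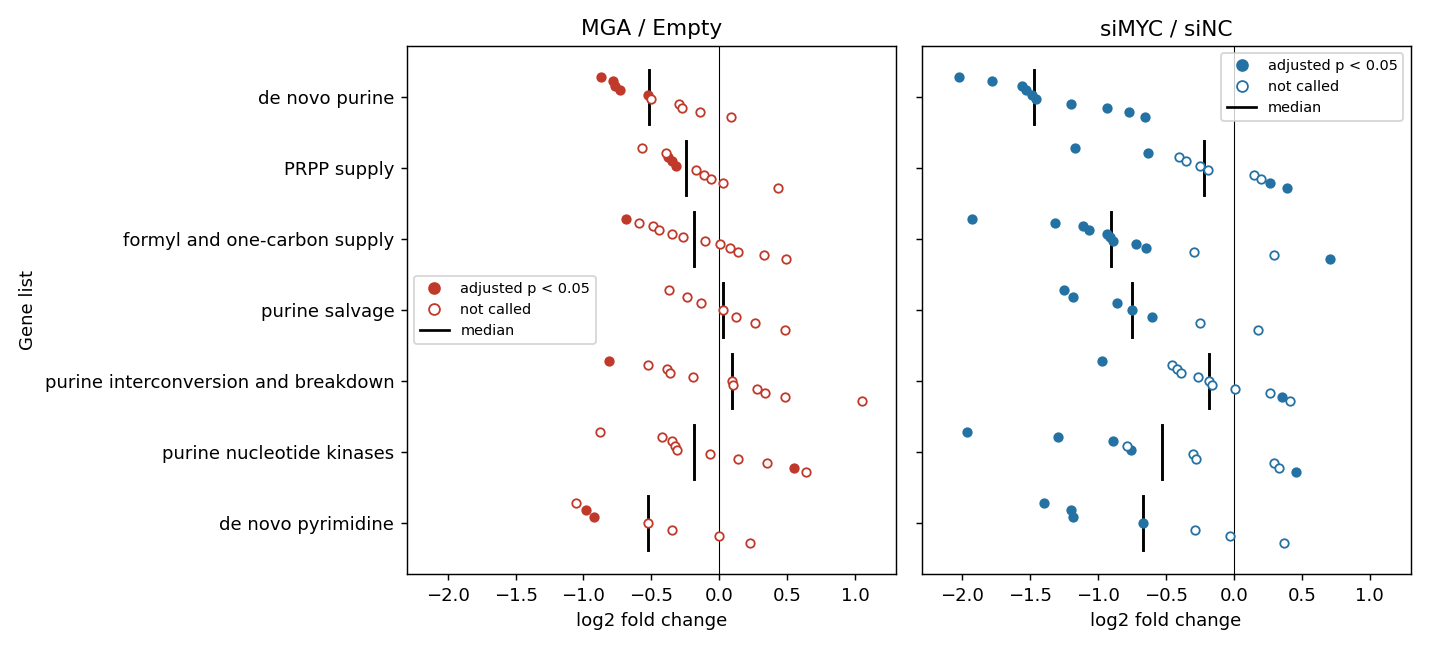
Log2 fold changes of the tested genes of 7 lists of purine and pyrimidine metabolism, with MGA over Empty (left) and siMYC over siNC (right); filled points have an adjusted p under 0.05 in edgeR and black bars are list medians. The de novo purine list has a median of -0.52 on the left and -1.47 on the right, and the salvage list 0.02 and -0.75.

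Among genes of purine interconversion and breakdown 1 of 11 was called lower with MGA, SAMHD1, a nucleotide triphosphatase (-0.81, adjusted p = 0.00075 in edgeR). With siMYC 1 was called lower and 1 higher, the higher one being NT5C2, a nucleotidase that acts on IMP and GMP (0.35, adjusted p = 0.0235 in edgeR). NT5C2 had 0.33 with MGA, which was not called. DESeq2 called 1 of the 11 lower with MGA and 0 with siMYC, and limma-trend on TPM called 0 in either comparison. Of 10 nucleotide kinases, 1 was called higher with MGA, and with siMYC 4 were called lower and 1 higher, against 4.96% of all genes higher with MGA, and 20% lower and 19% higher with siMYC. NME1, a nucleoside diphosphate kinase with the near-identical neighbour NME2, so that its value is uncertain, had 74.9 and 92.7 CPM with siMYC and 295 and 353 CPM with siNC (-1.97; -0.33 with MGA, not called). AK4 had -1.30 with siMYC and -0.07 with MGA, and NME4 -0.76 and -0.35, neither called with MGA. The kinase called higher in both comparisons by edgeR, named after its values were seen, was AK3, with 0.55 with MGA and 0.45 with siMYC. DESeq2 called 4 of the 10 kinases lower with siMYC and 0 higher in either comparison. Limma-trend on TPM called 3 lower and 1 higher with siMYC, and 0 with MGA.

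Pyrimidine synthesis, the parallel route to the other bases, is the nearest comparison. Of its 7 tested genes, 2 were called lower with MGA and 4 with siMYC, with medians of -0.53 and -0.67, against -0.52 and -1.47 for the purine enzymes. The all-gene shares were 4% lower with MGA and 20% lower with siMYC, and limma-trend on TPM called 0 of the 7 in either comparison, with 1 at an unadjusted p under 0.05 with MGA and 4 with siMYC. CAD, which carries out the first pyrimidine steps, had 87.6 and 86.5 CPM with MGA and 168 and 176 CPM with Empty, a log2 fold change of -0.98, and -1.20 with siMYC. The difference between the responses of CAD was not called (0.21, 95% interval -0.18 to 0.61, adjusted p = 0.48 in edgeR). CTPS1 had -0.92 with MGA and -0.29 with siMYC, and its difference was called in the other direction (-0.64, adjusted p = 0.034 in edgeR). DESeq2 and limma-trend on TPM called 0 of the 7 for the difference. The MGA libraries of CTPS1 were apart, at 57.5 and 87.6 CPM. In TPM it had 66.3 and 67.3 with MGA and 74.8 and 77.9 with Empty. UMPS had -0.00 with MGA and -1.18 with siMYC, and TYMS, which makes thymidylate, had -0.67 with siMYC and -0.35 with MGA, not called. DHODH, the dehydrogenase of that route, was the remaining siMYC call (-1.40, adjusted p = 0.0034 in edgeR; -1.06 with MGA, not called) and lies outside the naming rule.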

How the data were processed

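The submitters' processing notes name STAR, RSEM and hg19, without versions or annotation. Per the file headers, the authors deposited for each library and gene the expected count (RSEM's estimate, not always whole), TPM, FPKM (not used here) and the assigned transcript length and effective length. Expected counts were rounded, and edgeR's filterByExpr (at least 10 counts, total at least 15) kept 11218 genes. After TMM scaling, all 4 groups entered 1 model (4 residual degrees of freedom) in edgeR 4.0.16 in R 4.3.3, using the quasi-likelihood F test with Benjamini-Hochberg adjustment over all genes. All adjusted p-values of single genes are from edgeR unless another tool is named. Standard errors are the log2 fold change divided by the square root of F, and intervals use the fitted degrees of freedom. DESeq2 1.42.0 and limma 3.58.1 (limma-trend on log2 TPM with pseudocounts of 1 and 0.1) were alternatives. With 2 libraries a side, exact permutation p-values start at 0.333 and were not used.

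The members, gene lists and tests were chosen with earlier results of these data known. Named were the 10 members, up to 4 called genes per list by smallest p, and the 5 genes nearest the members' median pair of responses. Some genes of the lists are counted but not reported here by name. MGA and MYC were named as the manipulated genes, and the MGA value of a listed gene was given beside its siMYC value. Replicate counts were farther apart than Poisson noise, so all 8 libraries were kept. The chi-square per degree of freedom was 1.12 with MGA, 1.18 with Empty, 1.82 with siNC and 1.86 with siMYC. The 1 model nevertheless shares its estimate of spread between the experiments. With the 4 libraries of each experiment fitted alone, edgeR called 1381 genes with MGA and 4135 with siMYC. The members called were then 6 with MGA and 10 with siMYC, where PAICS had an adjusted p of 1.75e-08. Whether counting used strand is not stated. PPAT and PAICS overlap each other in RefSeq, and PFAS overlaps CTC1, ADSL overlaps SGSM3, ATIC overlaps FN1 and ADSS (ADSS2 in RefSeq) overlaps CATSPERE, so their values could hold reads of these partners. RefSeq windows on GRCh38.p14 were used for sequence only. Windows were matched for 8 of 10 members, not for ADSL or IMPDH2. No spike-in is named, so all values are shares of a library.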

Additional observations from a re-analysis of the deposited data

How the results depend on the processing

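Of 140 alternative values of member log2 fold changes, 111 kept direction and call with MGA and 131 with siMYC, as did 147 of 170 for the difference between responses. Directions turned for ADSS with MGA (-0.0398 with library sizes alone; leaving out a library gave -0.0441 to 0.2353, the lowest without MGA replicate B) and, for the difference, for ATIC with library sizes alone (-0.0175) and PFAS on TPM (-0.37 with either pseudocount). In none of these was the value called. DESeq2 called 358 genes with MGA (1005 in edgeR), 1971 with siMYC (4370) and 827 for the difference (2076), and among members 3 with MGA. On TPM with a pseudocount of 1 (0.1), 82 (63), 1245 (1191) and 347 (331) genes and 0 (0), 6 (6) and 2 (1) members were called; the members at an unadjusted p under 0.05 with MGA were 4 in both. Leaving out a library gave 405 to 470 genes and 2 to 3 members with MGA, and 1326 to 1926 genes for the difference; the fall in the count came with fewer samples. The split of calls with MGA, 449 lower to 556 higher, became 628 to 387 under upper-quartile scaling and 821 to 300 when only library sizes were used, where the all-gene median was -0.116. The member calls with MGA were then 6 of 10, with GMPS added (log2 fold change -0.63, adjusted p = 0.0114 in edgeR with library sizes alone). For the difference the split, 922 negative to 1154 positive, became 1188 to 804 and 1357 to 714 under these scalings.

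Letters A and B are shared between groups. The deviations of A libraries from their group means correlated at -0.002 across 6527 genes between MGA and Empty, and at 0.254 between siMYC and siNC, and nothing in the labels pairs them. With the replicate block 1176 genes were called with MGA, 4657 with siMYC and 2292 for the difference, and 6, 10 and 6 members. Depth limits precision, with member counts from 31 upwards.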

Other observations

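The control groups of the experiments differed at several members. IMPDH1 was at 40.5 and 48.0 CPM in Empty cells and at 106 and 114 CPM in siNC cells, PFAS at 109 and 116 CPM in Empty and 154.3 and 187.8 CPM in siNC, and ADSL at 62.5 and 64.8 CPM in Empty and 94.3 and 96.8 CPM in siNC. GART, at 146 and 171 CPM in Empty and 150 and 151 CPM in siNC, overlapped. These groups belong to different experiments, were not compared by a test, and vector, transfection and experiment cannot be told apart.

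The sum over the 10 members was 820 and 900 CPM with MGA and 1234 and 1245 CPM with Empty, and 571 and 709 CPM with siMYC and 1541 and 1641 CPM with siNC. The ratio of PAICS to PPAT, neighbours that share an upstream region, was 3.73 and 4.61 with MGA and 3.82 and 4.81 with Empty, and 3.46 and 3.54 with siMYC and 4.66 and 5.54 with siNC. The groups overlap with MGA, and with siMYC both libraries were below both siNC libraries.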
